A study of Homo sapiens with 4 samples.

Results

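RAD54L is a motor protein of homologous recombination, the pathway that repairs a broken chromosome by copying an intact sister. It was examined here with RAD52, BRCA1, BRCA2, PALB2, XRCC2 and XRCC3, which act in the same pathway. Members were all probes that the probe-gene table names for 1 of these 7 genes. This gave 7 probes for 6 genes, among 26423 probes and 17778 gene names in all. No probe bore the name XRCC2, which was not analysed here. The genes were chosen on measured values, because the low RAD54L signal after berberine was already known from these same 4 arrays. Differences of the members between the groups are therefore given as a description, with standard errors and without p-values.

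By their labels both groups were HepG2 cells, a human hepatocellular carcinoma line, and the series asked how berberine bears on their viability. The control group (2 samples) had no berberine, and the other group (2 samples) received 26.95 µM berberine, a plant alkaloid, for 24 hours. The samples' description field conflicts with this and names MDI-induced differentiation over 48 hours, and for the berberine samples a concentration of 13.47 µM. Amplified RNA labelled with Cy5 was hybridised to 1 one-colour array per sample, and no label says that samples of a group came from separate cultures.

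In homologous recombination the ends of a double-strand break are trimmed to single strands, which RPA coats. BRCA1, PALB2 and BRCA2 form a chain that acts on those strands and prepares them for strand exchange. XRCC2 and XRCC3 assist at the same stage. RAD54L, a Swi2/Snf2-type ATPase, moves along double-stranded DNA and helps the broken strand to pair with the matching sequence. RAD52 anneals single strands that carry the same sequence. The pathway needs a sister chromatid, and many of its genes are known to be transcribed mainly in S and G2 phase of cycling cells.

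The promoters of RAD54L and XRCC3 are shown because these 2 genes had the widest separation between the groups among the members. Each sequence is the 250 bases before a RefSeq transcription start of the human gene in build GRCh38.p14, written 5′ to 3′ along the gene. RefSeq gives RAD54L 2 starts, and the window of the upstream one is shown. The RAD54L window is chr1:46247438-46247687 on the plus strand, and the XRCC3 window is chr14:103715452-103715701 on the minus strand. Capitals mark the CCAAT box, searched as CCAAT on both strands, so that it reads ATTGG where it lies on the other strand.
RAD54L: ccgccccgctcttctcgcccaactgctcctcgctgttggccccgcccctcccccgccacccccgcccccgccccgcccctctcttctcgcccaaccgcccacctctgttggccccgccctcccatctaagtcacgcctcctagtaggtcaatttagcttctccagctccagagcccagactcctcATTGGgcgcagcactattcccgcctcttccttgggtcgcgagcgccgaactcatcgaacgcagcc
XRCC3: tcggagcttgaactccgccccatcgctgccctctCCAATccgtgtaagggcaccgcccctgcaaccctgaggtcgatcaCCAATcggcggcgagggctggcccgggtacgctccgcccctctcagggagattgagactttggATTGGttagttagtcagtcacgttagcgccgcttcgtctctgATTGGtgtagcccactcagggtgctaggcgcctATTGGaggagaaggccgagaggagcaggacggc
The RAD54L window shown held 1 CCAAT box, with its first base at position -65 from its start. The window of the other RAD54L start, chr1:46247513-46247762, overlaps it and held 2, at positions -140 and -77. XRCC3 held 5, at positions -216, -171, -108, -66 and -33. Of all 35116 promoter windows of this length, 32.0% held at least 1 CCAAT box and 0.319% held 5 or more. The GC box, searched as GGGCGG on both strands with overlaps allowed, occurred 7 times in the RAD54L window shown, 2 times in the other RAD54L window and 3 times in the XRCC3 window, and at least once in 42.6% of all windows. The words TTTCCCGC, TTTCGCGC, TTTGGCGC and TTTGCCGC, which E2F factors are known to bind, were found in none of these 3 windows and in 2.79% of all windows. A match describes the letters only, and no binding was measured.

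The labels give human cells, but every probe identifier carries the prefix of a mouse array. Each level below is thus that of a probe named for a gene, and how well it reports the human RNA was not tested. Median deposited intensity ranged from 62 to 90 over the 4 samples, both ends being controls. Intensities were quantile normalized and are given below as log2(value + 1), called the log2 level. As a measure of background, 543 probes named for olfactory receptors were used, a choice made after the data were seen. Their mean log2 levels had a median of 6.02 and a 95th percentile of 9.23. In a bulk sample, fewer cells that express a gene and less of its RNA per cell cannot be told apart.

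RAD54L had a lower signal in the berberine samples. Its deposited intensity was 1878 and 1513 in the controls and 506 and 571 after berberine. The log2 levels were 10.64 and 10.56 in the controls and 9.23 and 9.15 after berberine. Both berberine samples lay below both controls, and the nearest samples of the groups were 1.33 apart, against 0.080 for the 2 controls and 0.079 for the 2 treated samples. The group means were 10.60 ± 0.056 and 9.19 ± 0.056 (SD, n = 2 each). The difference of berberine minus control was -1.41 (SE 0.118) on the log2 scale, a signal 2.66-fold lower. The mean log2 level over the 4 samples was 9.89, and 2.03% of the olfactory receptor probes had a higher mean. Set against the group means of RAD54L, 0.552% of those probes lay above its control mean and 5.71% above its berberine mean. The berberine signal of RAD54L thus lay at about the 95th percentile of the reference and its control signal above it.

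**Figure D1:**
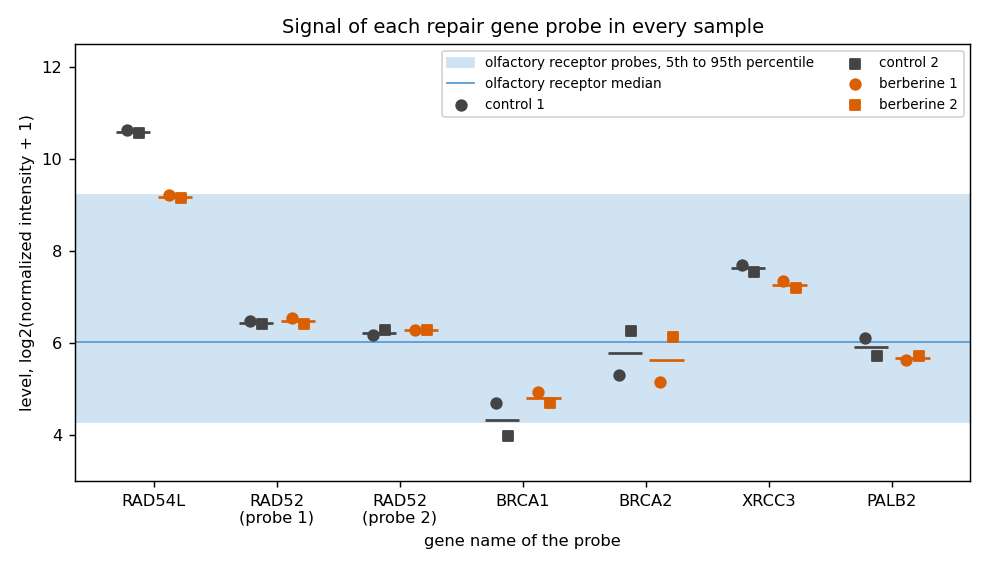
Normalized log2 level (vertical axis) of each of the 7 probes in the 2 control and 2 berberine samples, 1 point per sample. The RAD54L points lie at 10.56 to 10.64 for the controls and at 9.15 to 9.23 for berberine, and the other 6 probes had means below 8.

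BRCA1, the ubiquitin ligase that recruits PALB2 to trimmed breaks, had 1 probe with log2 levels of 4.70 and 3.98 in the controls and 4.93 and 4.70 after berberine. The groups overlapped, and the difference was 0.48 (SE 0.288). Control 2 stood low, with a deposited intensity of 2 against 32 in control 1 and 31 and 28 in the berberine samples. Of the olfactory receptor probes, 90.2% had a higher mean, so this is among the dimmest signals on the array.

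PALB2, the bridge between BRCA1 and BRCA2, had log2 levels of 6.11 and 5.73 in the controls and 5.63 and 5.72 after berberine. Both berberine samples were lower, but the nearest samples of the groups were 0.0068 apart, much less than the SD of 0.273 between the controls. The difference was -0.25 (SE 0.178). BRCA2, the mediator that PALB2 holds at the break, had log2 levels of 5.31 and 6.27 in the controls and 5.15 and 6.12 after berberine. Samples of the same group differed more than the groups did, and the difference was -0.15 (SE 0.491). More than 50% of the olfactory receptor probes lay above each of these means, 55.8% for PALB2 and 58.7% for BRCA2.

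RAD52 was read by 2 probes. The first gave log2 levels of 6.48 and 6.42 in the controls and 6.55 and 6.42 after berberine, and the second gave 6.17 and 6.29 against 6.29 and 6.29. The groups overlapped on both probes. The differences were 0.04 (SE 0.121) and 0.05 (SE 0.119), each smaller than its SE. Higher means were found in 42.5% and 45.9% of the olfactory receptor probes.

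XRCC3, which forms a complex with RAD51C, had log2 levels of 7.70 and 7.55 in the controls and 7.34 and 7.20 after berberine. Both berberine samples were below both controls, with 0.208 between the nearest samples. The group means were 7.62 ± 0.102 and 7.27 ± 0.104 (SD, n = 2 each), and the difference was -0.35 (SE 0.132). Of the olfactory receptor probes, 24.3% had a higher mean.

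Of the 7 probes, 3 (RAD54L, XRCC3 and PALB2) had both berberine samples below both controls, which held for 22.5% of all probes. In the other 4 probes the groups overlapped. RAD54L alone had a difference of -1 or lower, as did 1.19% of all probes. No member passed an adjusted p of 0.05 in limma with Benjamini-Hochberg adjustment over all probes, and 0% of all probes did. At an unadjusted limma p under 0.05 stood 11.7% of all probes, and an alternative limma fit that lets the variance follow the intensity called 1.07%, RAD54L among them. The members were chosen on this contrast, so nothing is read from their counts, and the call of RAD54L is no support for its difference. The median difference was -0.15 over the 7 probes and -0.0095 over all probes.

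**Figure D2:**
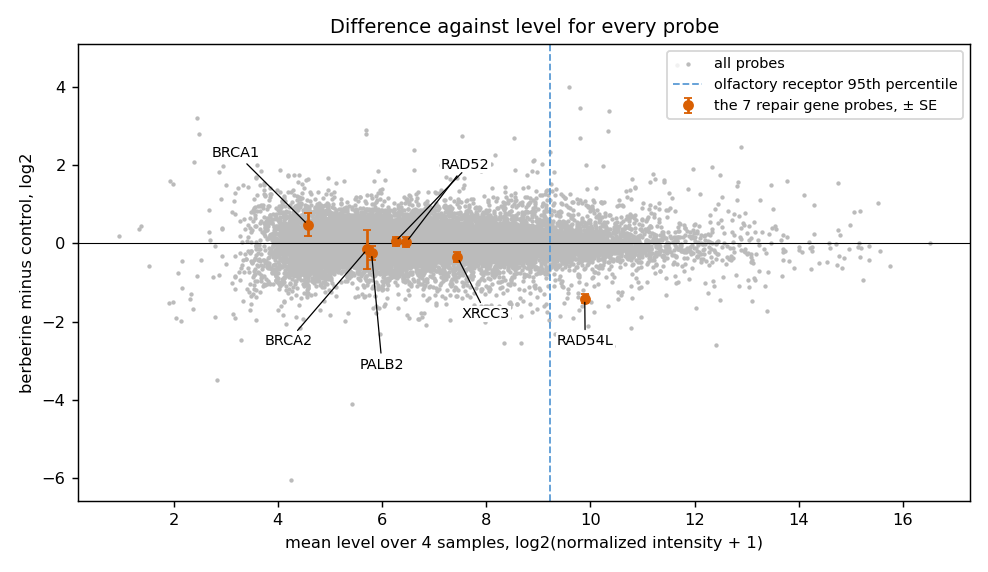
Berberine minus control difference on the log2 scale (vertical axis) against mean log2 level (horizontal axis) for all 26423 probes, with the 7 probes marked and the olfactory receptor 95th percentile drawn. RAD54L, at a mean of 9.89 and a difference of -1.41, is the only one of the 7 above that percentile.

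Among bright probes RAD54L was at the lower end but not alone. A mean above the olfactory receptor 95th percentile was found for 2010 probes, and 50 of them (2.49%) had a difference of -1 or lower. At or below the difference of RAD54L were 20 of these probes, itself included.

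The named probes whose profile over the 4 samples came closest to RAD54L were found by the root mean square distance between log2 levels, each centred on its own mean. The 5 nearest lay at distances of 0.0575 to 0.0678. SLC39A5, a zinc transporter, was nearest, with a difference of -1.32. TXNDC2, a thioredoxin of sperm, followed with -1.34. UBE2N, which builds ubiquitin chains that signal DNA damage, had log2 levels of 13.16 and 13.26 in the controls and 11.79 and 11.73 after berberine, a difference of -1.45. PODXL2, a membrane sialomucin, had -1.31, and TTC39C, a tetratricopeptide repeat protein, had -1.35. With 4 samples in 2 groups, a near profile means little beyond a similar difference with a small spread within groups.

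**Figure D3:**
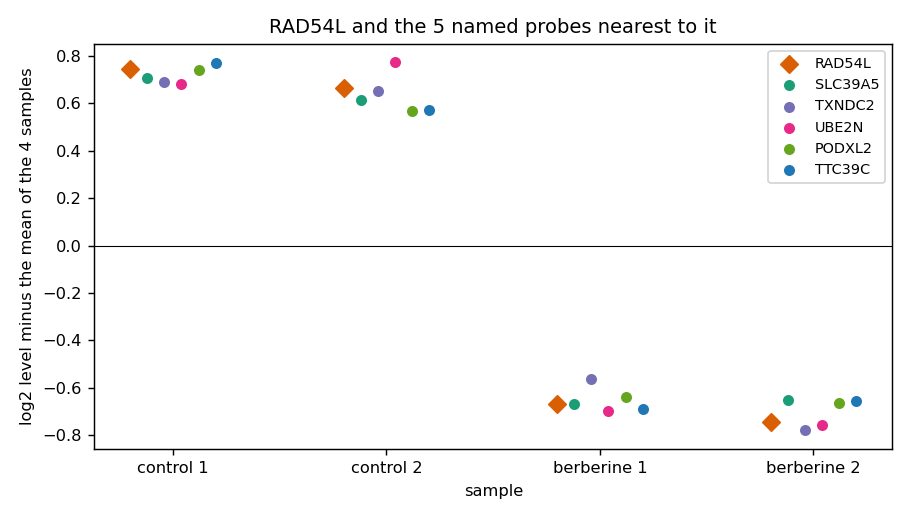
Log2 level minus the probe's own mean (vertical axis) in each of the 4 samples for RAD54L and the 5 named probes nearest to it, 1 point per sample. All 6 probes are above their mean in both controls and below it in both berberine samples, by the construction of the ranking.

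Among other genes of homologous recombination, differences ranged from -0.40 to 0.65, with a median of 0.010. Of 31 such genes listed, 27 were measured, and none had a mean above the olfactory receptor 95th percentile. None passed an adjusted p of 0.05 in limma or in limma with an intensity trend, and on the brightest probe of each gene 4 (14.8%) had an unadjusted limma p under 0.05, against 11.7% of all probes. On those probes all 4 were higher after berberine. They were RAD51D (RAD51L3 in the table), a partner of XRCC2, with 0.65 (SE 0.214), RPA3, the smallest RPA subunit, with 0.52 (SE 0.158), RAD54B, the relative of RAD54L, with 0.39 (SE 0.133), and DMC1, the recombinase of meiosis, with 0.34 on the brighter of its 2 probes and 0.03 on the other. RAD51C gave 0.25, RAD51B -0.08, the BRCA1 partner BARD1 0.12 (SE 0.141) and RAD51AP1 -0.07. BLM, a helicase that dissolves joined molecules, had -0.30 (SE 0.112) on its brighter probe and -0.54 (SE 0.114) on the other, the smallest unadjusted p among all probes of the list.

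Genes that signal a break to the repair machinery were measured for 15 of 16 listed. None passed an adjusted p of 0.05 in limma or with the trend, and 4 (26.7%) had an unadjusted p under 0.05, against 11.7% of all probes, 3 of them higher. FAM175A (ABRAXAS1), a scaffold of the BRCA1-A complex, had 0.87 on its brighter probe and 0.13 on the other. UIMC1, which binds ubiquitin chains in that complex, had 0.77, and MDC1, the adaptor on marked histones, had 0.53. RNF168, the ligase that marks histones near breaks, had -0.40. No gene of this list had a mean above the olfactory receptor reference percentile. Mean log2 levels were 5.33 for FAM175A on its brighter probe, 4.98 for UIMC1, 4.99 for MDC1 and 4.49 for RNF168. All of these lay below the olfactory receptor median of 6.02. The Fanconi anaemia genes, which unhook crosslinks between strands, were measured for 12 of 12, with none past an adjusted p and 3 (25%) at an unadjusted p under 0.05, against 11.7% of all probes. FANCM, a DNA translocase, had -0.70 (SE 0.204), UBE2T, the conjugating enzyme of the pathway, had -0.81 (SE 0.258), and the nuclease FAN1 had 0.80 (SE 0.287). FANCI was the only one of them above the reference percentile and had a difference of -0.12.

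End joining, the competing repair route, was measured for 12 of 13 genes. None had an adjusted p under 0.05 in limma or with the trend, and none (0%, against 11.7% of all probes) an unadjusted one. LIG4, the ligase of the route, had 0.35 (SE 0.137), and POLQ, the polymerase of its backup branch, had -1.18 (SE 0.429). The POLQ mean of 4.56 was below the olfactory receptor median of 6.02. S phase genes were measured for 20 of 22. At an unadjusted p under 0.05 were 3 (15%, against 11.7% of all probes), all lower, namely E2F1, CDC45 and the helicase subunit MCM3. E2F1, the transcription factor that opens S phase, had log2 levels of 11.05 and 11.42 in the controls and 9.72 and 9.91 after berberine, so its groups did not overlap. The difference was -1.42 (SE 0.182), with a limma adjusted p of 0.165, and of 0.0303 with the intensity trend. Over the 16 settings run, its adjusted p from limma ranged from 0.0303 to 1.00, and 2 settings were under 0.05. CDC45, a part of the replicative helicase, had -0.43 (SE 0.121). The median difference of the S phase list was -0.055, close to that of all probes.

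**Figure D4:**
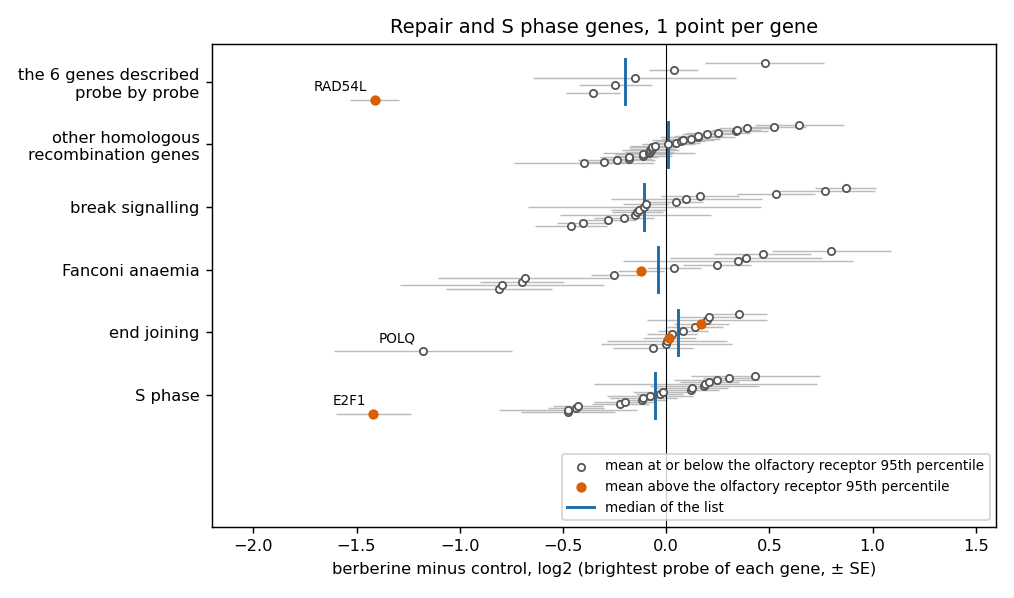
Berberine minus control difference on the log2 scale with SE (horizontal axis) for the brightest probe of each gene in 6 groups of repair and S phase genes. Filled points have a mean above the olfactory receptor 95th percentile, and vertical bars are group medians, which lie near 0 for the lists other than the members.

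Of 12 hepatocyte markers 10 were measured. None had a mean above the olfactory receptor 95th percentile, which 7.61% of all probes exceeded. ALB, the serum albumin gene, had a mean of 8.35 and a difference of -0.41. It alone of the 10 (10%, against 11.7% of all probes) had an unadjusted limma p under 0.05. As a mean log2 level over its genes, the hepatocyte list was at 6.53 and 6.52 in the controls and 6.45 and 6.51 after berberine. The 10 adipocyte markers, listed because of the description field, were at 6.39 and 6.54 against 6.34 and 6.43, and SLC2A4 alone was above the reference percentile, with a mean of 9.40. Adipocyte markers went both ways, and 3 of 10 (30%, against 11.7% of all probes) had an unadjusted limma p under 0.05. FABP4, a fatty acid carrier, had log2 levels of 6.11 and 5.92 in the controls and 7.10 and 6.94 after berberine, a difference of 1.00. The hormone genes RETN and ADIPOQ had -1.20 and -0.64. None of the 10 passed an adjusted p of 0.05 in limma or with the trend. None of 6 fibroblast and 4 macrophage markers was above the reference percentile. Whether the cells were those named by the labels was not tested. The part of cell type in the RAD54L difference was not tested.

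The RAD54L difference kept its direction under each of the 15 alternative settings run, from -1.76 to -1.34. The lowest came from median centring and the highest from a pseudocount of 50. XRCC3 stayed between -0.55 and -0.28, and BRCA1 between 0.12 and 1.61. The highest BRCA1 value came from the intensities as deposited, where the reading of 2 in control 2 weighs most. The difference turned sign in at least 1 setting for BRCA2, PALB2 and both RAD52 probes, so no direction is given for these 3 genes.

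**Figure D5:**
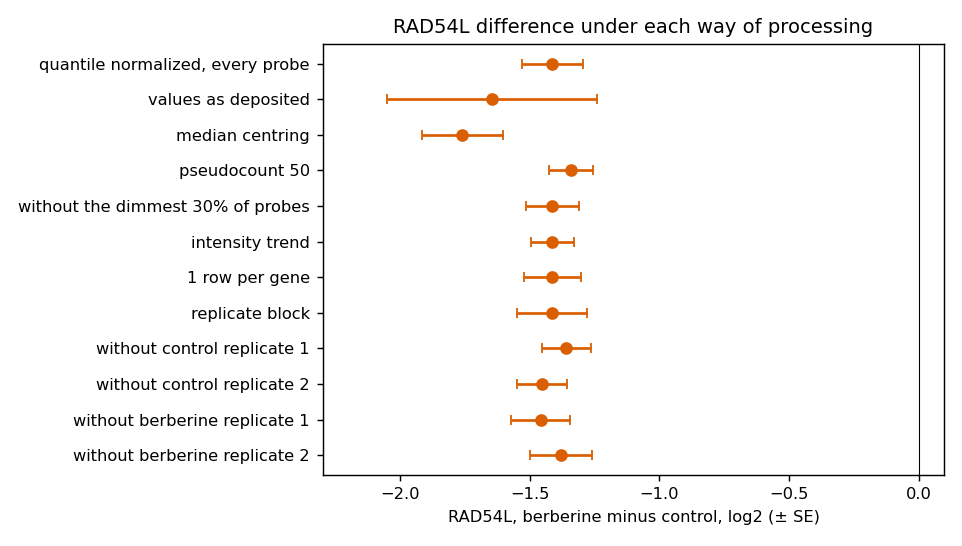
Berberine minus control difference of RAD54L on the log2 scale with SE (horizontal axis) under each processing setting, 1 point per setting. All points lie between -1.76 and -1.34.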

How the data were processed

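The authors deposited linear intensity values, 1 column per sample, for 26423 probes. How they were scanned, background-corrected and normalized is not given in the sources used here. The authors' values go below 0 in control 2 (269 probes), berberine 1 (1) and berberine 2 (11). Probes took names from a platform annotation table, which names 20377 probes and leaves 6046 unnamed.

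Here intensities were quantile normalized, values under 0 set to 0, and log2(value + 1) taken. Every probe was a row in limma 3.58.1 (R 4.3.3, lmFit and eBayes, 2 residual degrees of freedom), with Benjamini-Hochberg adjustment over all probes and a threshold of 0.05. Folds are on the log2(value + 1) scale and are imprecise for dim probes. The fit was tested on simulated data, with changes larger than that of RAD54L seeded among the brighter probes only. That test does not cover changes of the size reported here. Figures used matplotlib 3.10.9 in Python 3.11.15. Samples were grouped by title and treatment labels. As no label names separate cultures, p-values rest on the spread of these 4 arrays, possibly a technical one, and 2 arrays a group limit the precision.

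The members and lists were chosen with earlier results of these data known. The text names every member probe, the 5 nearest profiles, and list members by smallest p (2 per list where none passed), with BARD1 and RAD54B. DMC1, RAD51B, RAD51C, RAD51AP1, BLM, RNF168, MDC1, FAN1, FANCI, MCM3, ALB, SLC2A4, FABP4, RETN, ADIPOQ and the genes of the closing observations were named after their values were seen. List genes use their brightest probe, while the share of all probes set beside them counts every probe, named or not. With 1 row per gene, 2318 of 17778 rows had an unadjusted limma p under 0.05. Promoters are from RefSeq, GRCh38.p14. The alternatives were the deposited values, median centring, a pseudocount of 50, a filter on the dimmest 30%, an intensity trend, 1 row per gene, a replicate block, and each sample left out.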

Additional observations from a re-analysis of the deposited data

How the results depend on the processing

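No probe passed the adjusted p of 0.05 in limma, with 3101 at an unadjusted p under 0.05. The count was 283 with an intensity trend, 259 with a pseudocount of 50, 67 without the dimmest 30% of probes and 9 with 1 row per gene. It stayed 0 for the deposited values, median centring and each sample left out, and also with the trend and a sample left out, a setting added after seeing the data. For the 27 other homologous recombination genes it was 0 in each setting. The RAD54L difference was -1.65 as deposited, -1.76 with median centring, -1.34 with a pseudocount of 50 and -1.46 to -1.36 with 1 sample left out. As deposited, the median of all probes shifted by 0.108, and RAD54L lay -1.76 from it. PALB2 turned to 0.013 as deposited. The first RAD52 probe turned to -0.0098 with median centring. With 1 sample left out, PALB2 kept its sign, RAD52 reached -0.014 and -0.0065, and BRCA2 reached 0.28 and 0.34. A replicate block gave 0 probes past the adjusted p (2557 unadjusted) and -1.41 for RAD54L. Deviations of same-numbered samples correlated at r = 0.084 across probes. No label says whether same-numbered samples were paired, and this correlation over all probes cannot settle it. With 2 arrays a group and most members within the olfactory receptor range, small differences were not detectable.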

Other observations

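A few genes outside the lists were named after their values were seen. RAD9, a subunit of the clamp that activates checkpoint signalling at damaged DNA, had log2 levels of 9.74 and 9.76 in the controls and 8.45 and 8.49 after berberine, a difference of -1.28 (SE 0.112). Its clamp partners had -0.03 (HUS1) and 0.77 (RAD1), and the clamp loader RAD17 had -0.25. The partners of UBE2N in chain building had 0.01 (UBE2V1) and, on 2 probes, 0.24 and 0.64 (UBE2V2). RAD54L2, a related ATPase with a similar name, had levels of 9.04 and 8.64 in the controls and 9.46 and 9.45 after berberine, a difference of 0.62 (SE 0.181). The mean levels of RAD54L2 (9.15) and RAD9 (9.11) were both below the olfactory receptor 95th percentile of 9.23. Other genes read with these went both ways. RAD9B had 0.27, CLSPN 0.61, RAD51AP2 -0.09, PMS2 -0.0015, and MSH6 -0.19 and -0.15 on 2 probes.

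The genes next to RAD54L in the RefSeq order were also read where a probe bore their name. POMGNT1, a glycosyltransferase, had levels of 9.38 and 9.24 in the controls and 8.73 and 8.65 after berberine, a difference of -0.62 (SE 0.124). LRRC41 had -0.17, FAAH -0.32, TSPAN1 -0.06, and NSUN4 -0.31 and 0.20 on 2 probes.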
